A study of Mus musculus with 10 samples.

Results

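The antioxidant and iron genes described here are 38 genes, picked by symbol, out of the 53379 genes in the count table. They encode the transcription factor NRF2 and its inhibitor, enzymes of glutathione and thioredoxin metabolism, peroxidases, superoxide dismutases, catalase and the main proteins of iron uptake, storage and export. All 38 were found in the table, 36 of them among the 14337 genes expressed well enough to test. The other two, Gpx7 and Slc40a1, had 5 and 51 counts in all 10 libraries together. RNA came from MC38 cells, a mouse colon carcinoma line, grown as tumors in C57BL/6J mice and sorted 21 days after implantation as dTomato-positive, CD45-negative cells. CD45 is the common surface protein of leukocytes. Of the 10 mice, 5 were fed a control diet and 5 a high-fat diet, with 1 library each. The mice carried no other treatment or allele that the labels name. No source used here gives the make-up or duration of the diets, the age or sex of the mice, or how the line came to carry dTomato.

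NRF2, encoded by Nfe2l2, is held in the cytoplasm and marked for destruction by KEAP1 until oxidants or electrophiles modify KEAP1. Freed NRF2 enters the nucleus, pairs with small MAF proteins and binds antioxidant response elements near genes for glutathione synthesis, thioredoxin reduction, heme breakdown and ferritin. Glutathione and thioredoxin are the parallel thiol systems that supply electrons to peroxidases, and ferritin keeps iron out of the reactions that turn hydrogen peroxide into hydroxyl radicals. Tumor cells are known to depend on both thiol systems, and the loss of cystine uptake or of glutathione peroxidase 4 can lead to ferroptosis, a death by iron-driven lipid peroxidation.

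Control libraries totalled 17050797 to 18653705 counts, and high-fat libraries 16513388 to 17154050. A count of 3, the limit that a count of 0 allows, stood for 0.158 to 0.183 CPM, the count scaled to a common library size with TMM factors. Such limits cover counting error only. The sorted cells nearly lacked the epithelial markers listed for colon carcinoma: 8 such genes, among them Epcam and Krt8, summed to 1.42 to 6.23 CPM in control and 1.17 to 3.18 CPM in high-fat libraries. Of the 8, only Cdh1 was expressed well enough to test, whereas 5 fibroblast markers, led by Col6a3 and Dcn, summed to 2514 to 3305 and 2178 to 3240 CPM. Macrophage markers differed between libraries. The sum of 12 such genes was 155, 59.2, 372, 422 and 70.7 CPM in control mice 1 to 5, and 26.9, 66.5, 38.04, 43.4 and 47.6 CPM in high-fat mice 1 to 5. Control mice 3 and 4 therefore carried the most macrophage transcript, and the groups overlapped. All 11 testable macrophage markers had a lower high-fat mean with an unadjusted p under 0.05, and none of the 12 was at 0 in all libraries. The 6 pan-leukocyte markers summed to 16.7 to 161 CPM in control and 12.5 to 43.5 CPM in high-fat mice. Markers of T and NK cells, B cells, neutrophils, endothelium and adipocytes summed to at most 28.8 CPM per list in any library. The highest red-cell total, 16.7 CPM, belonged to control mouse 5.

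Short sequences show which of these genes carry, in the stretches searched, the letters that NRF2 and the iron regulatory proteins are known to bind. The antioxidant response element was searched as TGACNNNGC, on both strands, in RefSeq promoter windows from 250 bases before to 50 bases after each start (GRCm38.p6). It shares its first letters with the AP-1 motif TGACTCA, and the Prdx1 match holds both. Windows were found for 31 of the 38 genes. Of those, 7 genes (22.6%) had a match, beside 13.99% of all 27025 genes with a window. Counted by window, 17.5% of 40 member windows held a match, beside 12.4% of all 32851 windows. The matches of those 7 genes, with the element in capitals and 10 bases on either side, were these.
Nfe2l2, chr2:75704885-75704913, minus strand: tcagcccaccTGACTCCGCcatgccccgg
Gclm, chr3:122245413-122245441, minus strand: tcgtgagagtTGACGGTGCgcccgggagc
Mgst1, chr6:138140461-138140489, minus strand: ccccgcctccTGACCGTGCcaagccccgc
Txnrd1, chr10:82859104-82859132, minus strand: cgtgtcagaaTGACAAAGCaaaaatccag
Srxn1, chr2:152105542-152105570, minus strand: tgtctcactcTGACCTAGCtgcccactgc
Prdx1, chr4:116685456-116685484, minus strand: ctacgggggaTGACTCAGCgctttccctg
Sod1, chr16:90220696-90220724, minus strand: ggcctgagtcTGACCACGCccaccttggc

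A match is a run of letters and not a measured binding site, and bases outside the windows were not searched. Among these 7 genes, Nfe2l2, Gclm and Mgst1 had lower high-fat values with an unadjusted p under 0.05, as did 6.62% of all tested genes. Txnrd1 (-0.22 on the log2 scale) and Sod1 (-0.13) had lower high-fat means without such a p, and Srxn1 and Prdx1 lay near 0. A link between a match and the diet difference was not tested. No window was found for Hmox1, Gclc, Gsr, Gsta4, Prdx6, Sod3 and Slc40a1.

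The iron genes carry a different element, in the messenger RNA. Iron regulatory proteins bind a stem-loop called the iron-responsive element when iron is scarce. In a 5′ UTR the bound protein blocks translation, as for ferritin and ferroportin, and in the 3′ UTR of the transferrin receptor it protects the transcript from decay. Stem-loops with a bulged C and the loop CAGTGN were found in GENCODE M21 transcripts of all 4 iron genes. Over 22527 coding genes, 0.071% had a match in the 5′ UTR and 0.444% had one in the 3′ UTR. These shares come from the longest coding transcript of each gene. For the 4 iron genes the transcript with the most UTR matches was taken, which favours them. The loop is in capitals, and positions count from the first base of each transcript.
Fth1 5′ UTR, bases 87 to 116: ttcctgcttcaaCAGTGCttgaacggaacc
Ftl1 5′ UTR, bases 78 to 107: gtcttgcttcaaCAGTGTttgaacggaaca
Slc40a1 5′ UTR, bases 90 to 119: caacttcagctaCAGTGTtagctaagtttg
Tfrc 3′ UTR, bases 3315 to 3344: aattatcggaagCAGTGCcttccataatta
Tfrc 3′ UTR, bases 3694 to 3723: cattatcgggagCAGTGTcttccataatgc
Tfrc 3′ UTR, bases 3759 to 3788: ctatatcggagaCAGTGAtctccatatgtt
Tfrc 3′ UTR, bases 3806 to 3835: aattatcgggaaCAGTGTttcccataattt

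Per kilobase of exon, 15 of the 38 genes lay above the 90th percentile of all tested genes. Ferritin heavy chain (Fth1, 253 CPM per kilobase) and cytosolic thioredoxin (Txn1, 234 CPM per kilobase) led, ahead of Gsto1 (129), Gpx1 (107) and Prdx3 (69.5). The ranges of Fth1 and Txn1 overlapped on this scale, so their order is not beyond the spread of the libraries. All 6 peroxiredoxins were among those 15, as were Txn2, Txnrd1, Srxn1, Gpx8 and Gstp1. At the other end stood Gsta4 (0.761), Gpx3 (0.576) and Mgst1 (0.308), then Slc40a1 (0.0336) and Gpx7 (0.0224). Between mice the median CV of the tested members was 12.7%, beside 13.2% for all tested genes. It was lowest for Keap1 (6.00%) and highest for Gpx3 (93.4%), and 24 of the 36 had a CV under 15%.

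**Figure D1:**
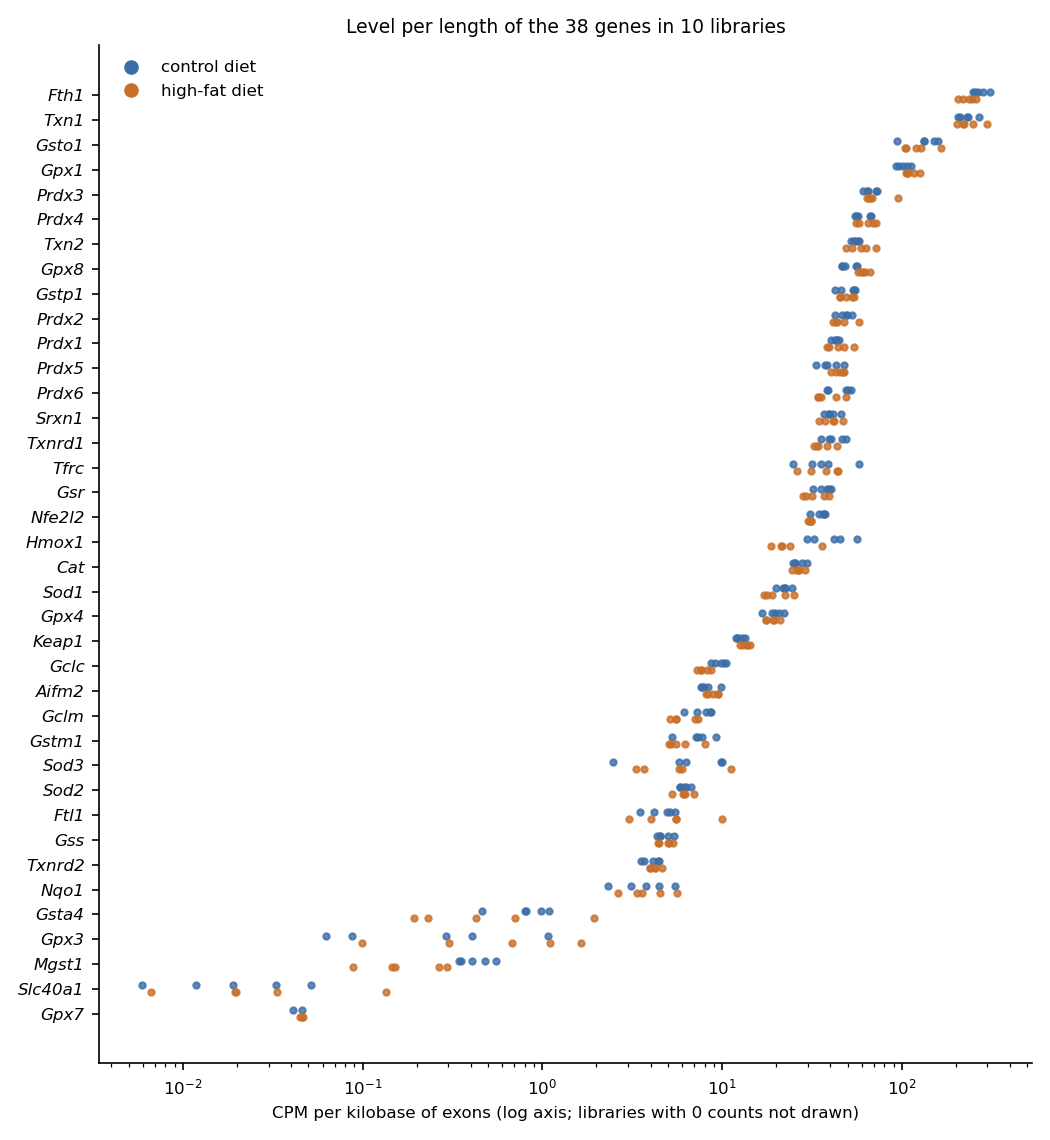
Transcript level per kilobase of exon (x axis, CPM per kilobase, log scale) of the 38 genes, with 1 point for each of 5 control and 5 high-fat libraries; libraries with 0 counts are not drawn. Fth1 and Txn1 lead at means of 253 and 234, and Slc40a1 and Gpx7 close the order at 0.0336 and 0.0224.

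The design holds one comparison, between tumor cells from hosts on either diet. No antioxidant or iron gene passed an adjusted p of 0.05 over all genes tested with edgeR's quasi-likelihood test, at which 0.0628% of the 14337 genes passed. At an unadjusted p under 0.05 there were 7 of 36 (19.4%), beside 12.1% of all tested genes. DESeq2 called 2 members at the adjusted threshold, beside 1.84% of the 17737 genes it gave an adjusted p. It had 7 of 38 at an unadjusted p under 0.05, beside 7.08% of all genes it gave a p. That wider set includes low-count genes, so its share is not like the 12.1% of the filtered edgeR set. Of the 7, Nfe2l2, Hmox1, Gclc, Gclm, Mgst1 and Fth1 had lower high-fat means (6 of 36, beside 6.62% of all genes) and Gpx8 a higher one (1 of 36, beside 5.45%). The diet groups did not overlap for 3 of 36, beside 2.18% of all genes: Gclc and Mgst1, both lower (beside 1.1%), and Gpx8, higher (beside 1.08%). Across the 36 genes, 15 differences were positive and 21 negative. The median log2 difference was -0.02, beside 0.01 for all tested genes, of which 51.4% were positive and 48.6% negative.

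The members were also counted by role. Of the 9 genes for glutathione synthesis, recycling and transfer, 8 had a negative difference, beside 48.6% of all tested genes. Of these 8, 3 had an unadjusted p under 0.05 (33.3% of the 9, beside 12.1% of all). The median log2 difference was -0.25. Of the 10 tested glutathione peroxidases and peroxiredoxins, 7 had a positive difference, beside 51.4% of all. Of these 7, 1 had an unadjusted p under 0.05 (10% of the 10, below the 12.1% of all). The median was 0.10. The 5 thioredoxin genes had a median of 0.06 and the 4 superoxide dismutase and catalase genes one of -0.07, with no unadjusted p under 0.05 in either. These counts describe the samples, and the contrast between roles was not tested.

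**Figure D2:**
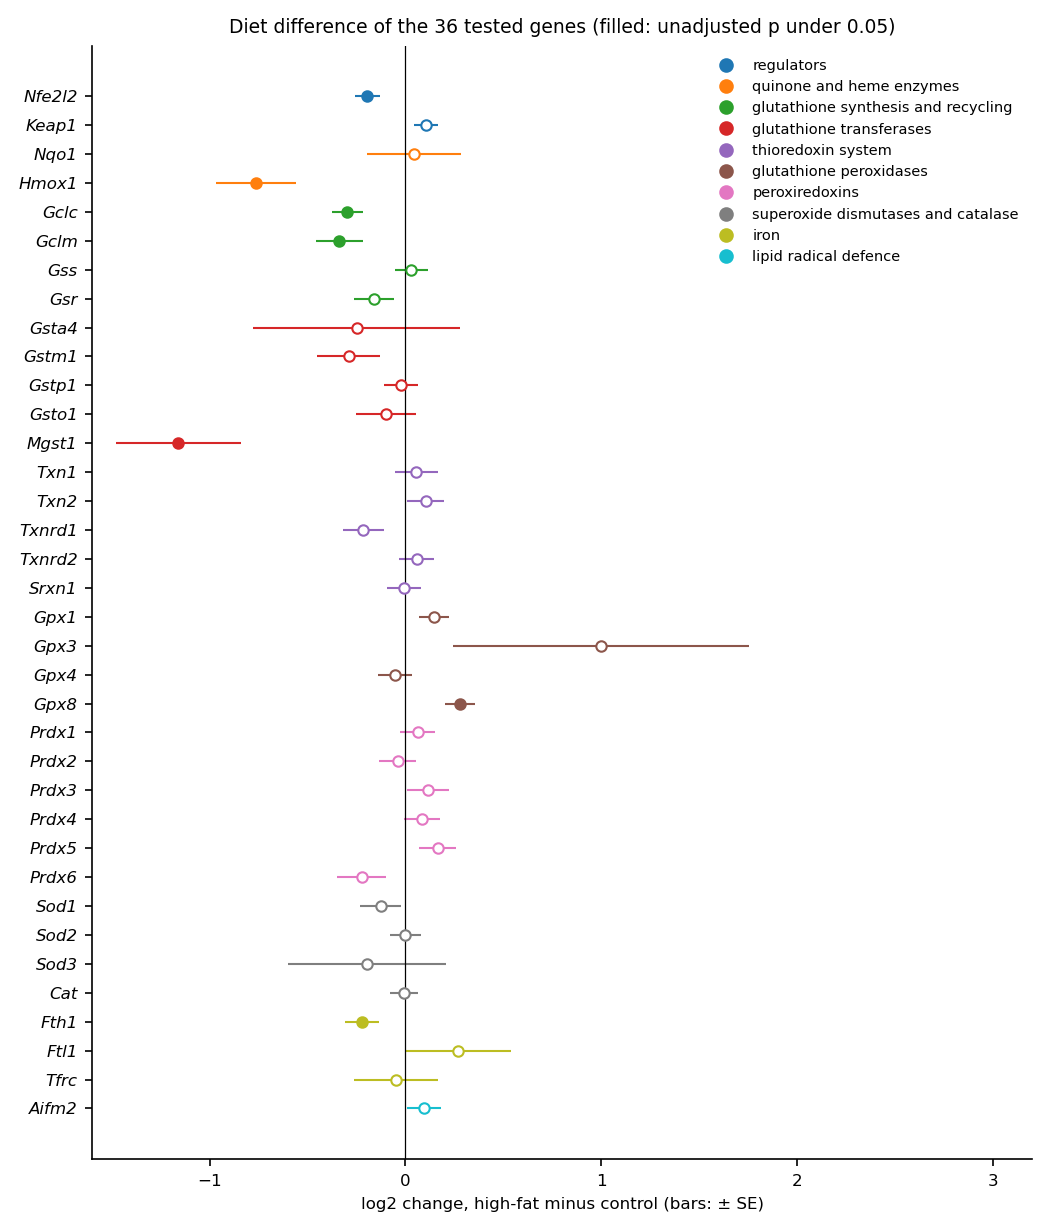
Log2 difference, high-fat minus control, of the 36 tested genes (points, with bars of ± 1 SE), coloured by role and filled where the unadjusted p was under 0.05. Hmox1 (-0.76) and Mgst1 (-1.16) lie farthest to the left of the filled points, and Gpx8 (0.28) is the only filled point to the right of 0.

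Nfe2l2 (ENSMUSG00000015839.6, chr2:75675513-75704641) encodes NRF2 itself. Its level in control mice 1 to 5 was 138.5, 117.6, 142.8, 140.9 and 130.9 CPM. It was 118.5, 117.0, 114.4, 117.0 and 118.7 CPM in high-fat mice 1 to 5. Control mouse 2 lay within the narrow high-fat range and the other controls lay above it. The means were 134 ± 10.3 and 117 ± 1.72 CPM (SD, n = 5 each), a log2 difference of -0.20 (SE 0.06, unadjusted p = 0.0100, adjusted p = 0.259). The highest values belonged to control mice 3 and 4, which also had the highest macrophage totals. With the macrophage level (mean log2 CPM of the 12 markers, 0.5 CPM added to each) as a covariate, the difference was -0.08 (unadjusted p = 0.383). Without those control mice it was -0.14 (unadjusted p = 0.0889). Keap1, the inhibitor that hands NRF2 to the ubiquitin ligase, was 58.9 ± 2.84 and 63.3 ± 3.14 CPM (SD, n = 5 each) and overlapped between diets (log2 difference 0.11, adjusted p = 0.554).

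Hmox1 (ENSMUSG00000005413.8, chr8:75093621-75100589) encodes heme oxygenase 1, which opens the heme ring and releases iron. Control mice 1 to 5 stood at 79.4, 73.1, 57.3, 51.9 and 98.9 CPM. High-fat mice 1 to 5 stood at 62.9, 37.3, 32.7, 37.9 and 41.9 CPM. High-fat mouse 1 lay among the controls, and the other high-fat mice lay below every control. The means were 72.1 ± 18.7 and 42.5 ± 11.9 CPM (SD, n = 5 each), a log2 difference of -0.76 (SE 0.20, unadjusted p = 0.00302, adjusted p = 0.193). DESeq2 put this difference past the threshold (adjusted p = 0.0153). So did edgeR without control mice 3 and 4 (adjusted p = 0.0259) and with the macrophage level as a covariate (adjusted p = 0.00657). Macrophages are known to express Hmox1. Control mice 3 and 4, with the highest macrophage totals, had the lowest Hmox1 of the controls. Leaving them out therefore widens the difference (-0.98), and that run is not separate support. Control mouse 5, with the highest red-cell total, had the highest Hmox1. The part of macrophages or red cells in the result was not tested. In sorted bulk RNA, fewer cells of a type and less RNA per cell cannot be told apart. Nqo1, the quinone reductase often used as a readout of NRF2, was scarce and did not follow Hmox1: it was 5.95 ± 1.87 CPM in control and 6.14 ± 1.80 CPM in high-fat mice (SD, n = 5 each; log2 difference 0.04, adjusted p = 0.962).

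Glutathione synthesis starts with glutamate-cysteine ligase, whose catalytic subunit is Gclc and whose modifier subunit is Gclm. Gclc (ENSMUSG00000032350.9, chr9:77754535-77794485) was 39.7, 38.8, 34.2, 37.1 and 32.9 CPM in control mice 1 to 5. On the high-fat diet, mice 1 to 5 had 31.2, 28.9, 27.2, 28.9 and 32.6 CPM. Every high-fat mouse lay below every control, by a narrow margin between high-fat mouse 5 and control mouse 5. The log2 difference was -0.30 (SE 0.08, unadjusted p = 0.00237, adjusted p = 0.183), and DESeq2 put it just past the threshold (adjusted p = 0.0453).

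Gclm (ENSMUSG00000028124.15, chr3:122245557-122270732), whose promoter match is printed above, was 51.0, 54.6, 45.8, 38.9 and 54.0 CPM in control mice 1 to 5. In high-fat mice 1 to 5 it was 46.3, 35.0, 32.4, 35.1 and 44.4 CPM. High-fat mice 1 and 5 lay within the control range and the others below it. The log2 difference was -0.34 (SE 0.12, unadjusted p = 0.0149, adjusted p = 0.279). It passed only with the macrophage level as a covariate (-0.60, adjusted p = 0.0387), control mice 3 and 4 having the lowest Gclm of the controls. Both ligase subunits thus had a lower high-fat mean, while Gss, which adds glycine in the next step, was 28.1 ± 2.57 and 28.7 ± 2.39 CPM (SD, n = 5 each).

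Gsr, the reductase that returns oxidised glutathione to its working form, had the highest level per length of this role. Its values were 109, 111, 88.1, 105 and 97.8 CPM in control mice 1 to 5. They were 101, 77.4, 81.0, 87.5 and 109 CPM in high-fat mice 1 to 5. The groups overlapped (log2 difference -0.16, adjusted p = 0.580).

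Glutathione transferases join glutathione to electrophiles. The 5 among the members all had negative differences, from -1.16 to -0.02 on the log2 scale. Tested transferases of the wider lists went both ways, among them Gstt2 (0.34) and Gstz1 (0.17), positive, and Gstm2 (-0.73) and Gstt1 (-0.27), negative. Mgst1 (ENSMUSG00000008540.11, chr6:138140316-138156755), a membrane-bound transferase with peroxidase activity, had 109 counts in all 10 libraries together. It stood at 0.712, 0.690, 0.816, 1.11 and 0.968 CPM in control mice 1 to 5 and at 0.536, 0.179, 0.305, 0.591 and 0.292 CPM in high-fat mice 1 to 5. The groups did not overlap, but the lowest library was at the limit that 3 counts set. The log2 difference was -1.16 (SE 0.32, unadjusted p = 0.00323, adjusted p = 0.195).

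Gsto1, an omega-class transferase that also reduces dehydroascorbate, was the most abundant transferase per length. In control mice 1 to 5 it was 305, 320, 267, 190 and 269 CPM, and in high-fat mice 1 to 5 it was 214, 259, 242, 210 and 336 CPM. Control mouse 4 held the lowest value and high-fat mouse 5 the highest, so the diets were not separated (log2 difference -0.10, adjusted p = 0.854). Gstm1 (10.8 ± 2.13 and 8.86 ± 1.77 CPM, SD, n = 5 each), Gstp1 (77.7 ± 8.68 and 76.6 ± 6.23 CPM) and Gsta4 (1.05 ± 0.30 and 0.881 ± 0.909 CPM) overlapped too.

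Cystine, the source of the cysteine in glutathione, enters by the exchanger whose light chain is Slc7a11, an NRF2 and ATF4 target in the wider lists given further on. Slc7a11 was 48.9, 47.5, 27.0, 22.3 and 29.1 CPM in control mice 1 to 5. In high-fat mice 1 to 5 it was 15.6, 15.8, 14.7, 17.4 and 20.7 CPM. Every high-fat mouse lay below every control, and control mice 1 and 2 stood well above the other controls. The means were 35.0 ± 12.4 and 16.8 ± 2.36 CPM (SD, n = 5 each), a log2 difference of -1.05 (SE 0.21, unadjusted p = 0.000395, adjusted p = 0.118). DESeq2 put it past the threshold (adjusted p = 0.000413), as did edgeR without control mice 3 and 4 (adjusted p = 0.0045). Those mice held the lowest control values of Slc7a11, so leaving them out widens the difference. Control mice 1 and 2 were also the highest pair of libraries for Gclc.

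**Figure D3:**
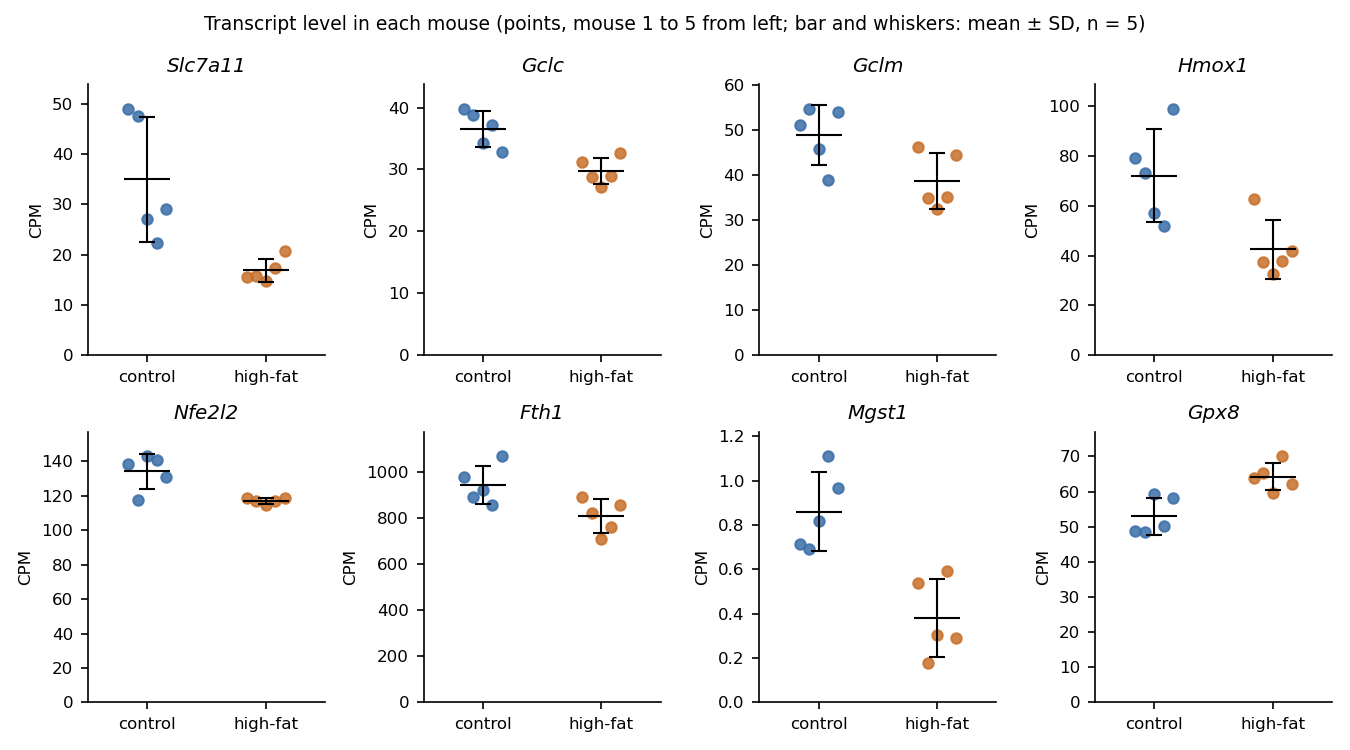
CPM (y axes, from 0) of 8 genes in each mouse, points from left to right being mice 1 to 5 of each diet, with the mean and SD (n = 5). The diets do not overlap for Slc7a11, Gclc, Mgst1 and Gpx8, and the high-fat mean is the higher one for Gpx8 alone.

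The thioredoxin system showed no separation between diets. Txn1, the cytosolic thioredoxin, was 242, 245, 222, 216 and 281 CPM in control mice 1 to 5. High-fat mice 1 to 5 had 263, 212, 233, 232 and 314 CPM. The highest value in each diet was that of mouse 5, and the groups overlapped throughout (log2 difference 0.06, adjusted p = 0.890). Txnrd1, the cytosolic selenoenzyme that reduces thioredoxin and a classical NRF2 target, was 300 ± 39.2 and 258 ± 32.1 CPM (SD, n = 5 each; log2 difference -0.22, unadjusted p = 0.0614, adjusted p = 0.449). The mitochondrial pair Txn2 and Txnrd2 differed by 0.10 and 0.06 on the log2 scale. Srxn1, the sulfiredoxin that repairs overoxidised peroxiredoxins and another NRF2 target, was 115 ± 9.52 and 114 ± 12.8 CPM (SD, n = 5 each), a log2 difference of -0.01.

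Among the glutathione peroxidases, Gpx8 (ENSMUSG00000021760.4, chr13:113042753-113046410) was the only one separated by diet. It encodes a peroxidase of the endoplasmic reticulum membrane that clears hydrogen peroxide made during disulfide formation. Control mice 1 to 5 had 48.7, 48.5, 59.2, 50.3 and 58.2 CPM, and high-fat mice 1 to 5 had 64.0, 65.4, 59.7, 70.0 and 62.0 CPM. Every high-fat mouse lay above every control, though high-fat mouse 3 did so only just. The means were 53.0 ± 5.26 and 64.2 ± 3.88 CPM (SD, n = 5 each), a log2 difference of 0.28 (SE 0.08, unadjusted p = 0.00356, adjusted p = 0.197).

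Gpx1, the abundant peroxidase of cytosol and mitochondria, was 154, 140, 146, 133 and 162 CPM in control mice 1 to 5 and 168, 155, 152, 156 and 183 CPM in high-fat mice 1 to 5. The high-fat values lay toward the upper end but overlapped the controls (log2 difference 0.15, unadjusted p = 0.0743, adjusted p = 0.479). Gpx4, which reduces lipid hydroperoxides and guards against ferroptosis, was 33.9 ± 3.49 and 32.7 ± 2.43 CPM (SD, n = 5 each; log2 difference -0.05, adjusted p = 0.865). Gpx3, the secreted peroxidase of plasma, ranged from 0.114 to 2.98 CPM, and its log2 difference of 1.00 had an SE of 0.76. Gpx7, the relative of Gpx8 in the endoplasmic reticulum, was at most 0.0596 CPM, below the limit that 3 counts set.

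The peroxiredoxins, thiol peroxidases that use thioredoxin or glutathione, lay between -0.22 and 0.16 on the log2 scale. Prdx3, the mitochondrial member and the highest per length, was 95.3, 108, 106, 89.7 and 94.6 CPM in control mice 1 to 5. In high-fat mice 1 to 5 it was 101, 98.2, 95.0, 97.7 and 141 CPM. High-fat mouse 5 stood apart from the 4 others of its diet, which lay within the control range (log2 difference 0.11, adjusted p = 0.752; -0.0047 without that mouse). Prdx5, found in mitochondria and peroxisomes, was 85.7 ± 12.02 and 96.0 ± 6.37 CPM (SD, n = 5 each; unadjusted p = 0.104). Prdx6, which works with glutathione on phospholipid hydroperoxides, was 220 ± 31.5 and 188 ± 32.2 CPM (SD, n = 5 each; unadjusted p = 0.0971). Prdx1, Prdx2 and Prdx4 differed by 0.06, -0.04 and 0.09.

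Catalase (Cat), the heme enzyme of peroxisomes, was close to level between diets. It was 66.8, 64.8, 73.2, 66.3 and 77.9 CPM in control mice 1 to 5. It was 75.6, 69.2, 64.1, 68.0 and 70.5 CPM in high-fat mice 1 to 5. The groups covered the same range, with a log2 difference of -0.01 (SE 0.07). The mitochondrial superoxide dismutase Sod2 was 61.6 ± 3.69 and 61.5 ± 6.10 CPM (SD, n = 5 each), and the cytosolic Sod1 88.2 ± 6.54 and 80.8 ± 13.7 CPM (adjusted p = 0.707). Sod3, the secreted form, varied most of these, from 9.27 to 42.0 CPM (CV 46.7%), with no separation by diet.

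Of the iron genes, the one with an unadjusted p under 0.05 serves storage. Fth1 (ENSMUSG00000024661.6, chr19:9980598-9985098), the ferritin heavy chain, oxidises iron as it enters the ferritin shell. Control mice 1 to 5 stood at 979, 892, 923, 859 and 1069 CPM and high-fat mice 1 to 5 at 894, 822, 712, 762 and 858 CPM. Only high-fat mouse 1 lay within the control range, with high-fat mouse 5 just below it. The means were 945 ± 82.4 and 809 ± 73.3 CPM (SD, n = 5 each), a log2 difference of -0.22 (SE 0.09, unadjusted p = 0.0242, adjusted p = 0.322). Fth1 and Hmox1 shared their highest libraries, control mice 5 and 1, and their lowest, high-fat mouse 3. When single mice were left out, the unadjusted p of Fth1 was 0.0519 and 0.0773 for control mice 1 and 5, and 0.0617 and 0.0662 for high-fat mice 3 and 4.

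Ftl1, the ferritin light chain, had only 1188 counts in all. It was 6.24 ± 1.08 CPM in control and 7.54 ± 3.56 CPM in high-fat mice (SD, n = 5 each), with high-fat mouse 3 at 13.4 CPM. Of its 50-base windows, 78.9% also occur in transcripts of other genes, so its level is not reliable here. Tfrc, the receptor that brings in transferrin-bound iron, ranged from 154 to 359 CPM in control and from 161 to 272 CPM in high-fat mice (log2 difference -0.05, SE 0.22, adjusted p = 0.954). Control mouse 4 held its highest value and control mouse 5 its lowest, so the spread within 1 diet covered all of the other. With the macrophage level as a covariate the log2 difference of Tfrc was 0.47. Slc40a1, ferroportin, the only known iron exporter, ranged from 0.053 to 1.22 CPM, the highest value being that of high-fat mouse 3. The transcript levels say nothing of the translational control that the ferritin stem-loops exert.

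Aifm2, also called FSP1, reduces coenzyme Q at membranes and so traps lipid radicals without glutathione. Control mice 1 to 5 had 32.7, 31.7, 40.7, 31.7 and 34.6 CPM, and high-fat mice 1 to 5 had 33.4, 39.0, 39.3, 36.5 and 34.6 CPM. The groups overlapped (log2 difference 0.09, adjusted p = 0.735).

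The wider lists place these members among other genes of the same pathways. Some genes stand in more than 1 list, so the shares given per list are not independent. Slc7a11 is in the NRF2, glutathione and ferroptosis lists, and Txnrd3 in the thioredoxin and selenium lists. In the main edgeR test, with TMM scaling, the standard low-count filter, all libraries and diet alone, no gene of any list passed the adjusted threshold. Of the list genes named here, DESeq2 put Slc7a11, Ptgs2, Cyb5r1, Selenbp1 and Ero1l past it, all with lower high-fat means. Without control mice 3 and 4, edgeR put those genes and Abcc1, Sesn2, Cpox and Steap2 past it, with 1.89% of all genes. For Slc7a11, Cyb5r1, Ero1l, Abcc1, Sesn2, Cpox and Steap2 those mice held the lowest control values, so leaving them out widens the difference. With the macrophage level as a covariate, 2.08% of all genes passed, among them Slc7a11, Cyb5r1, Steap2, Cpox, Abcc1, Selenbp1 and Ero1l. Selenbp1 also passed with no low-count filter (adjusted p = 0.0453). Of 34 other tested NRF2 pathway genes, 24 had a negative difference, beside 48.6% of all genes. Of the 34, 9 were negative with an unadjusted p under 0.05 and 1 was positive with such a p, together 29.4%, beside 12.1% of all genes (6.62% lower, 5.45% higher). Beside Slc7a11 these included the exporter Abcc4 (29.1 ± 2.77 and 23.5 ± 1.84 CPM, SD, n = 5 each), the drug and glutathione-conjugate exporter Abcc1 (199 ± 35.6 and 153 ± 14.1 CPM) and the alcohol dehydrogenase Adh7 (31.0 ± 3.35 and 21.9 ± 5.27 CPM). Control mice 1 and 2 were the highest pair of libraries for all 4 genes. Of 32 genes on this list with a promoter window, 11 (34.4%) held a letter match to the antioxidant response element, beside 13.99% of all genes with a window.

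Other glutathione genes were evenly split, 11 positive and 13 negative of 24, and 12.5% had an unadjusted p under 0.05, near the 12.1% of all genes. Gstm2, a mu-class transferase, was 4.16 ± 1.43 and 2.50 ± 0.37 CPM (SD, n = 5 each), and Chac2, which breaks glutathione down, was 6.69 ± 1.11 and 8.50 ± 0.91 CPM. Of 27 other thioredoxin-fold and repair genes, 16 were positive and 11 negative, and 3 (11.1%, no more than the 12.1% of all genes) had an unadjusted p under 0.05: Sesn2, a stress sensor linked to peroxiredoxin repair (83.0 ± 16.9 and 60.3 ± 10.4 CPM), Msra, a methionine sulfoxide reductase (12.2 ± 1.52 and 9.89 ± 0.93 CPM), and Txnrd3 (15.5 ± 2.04 and 11.9 ± 2.69 CPM). Selenium genes split 13 positive to 11 negative, 20.8% with an unadjusted p under 0.05 (2 higher, 3 lower). Selenbp1, a selenium-binding methanethiol oxidase, did not overlap between diets (6.03 ± 2.11 and 2.56 ± 0.84 CPM, log2 difference -1.24, adjusted p = 0.124). Scly, which frees selenium from selenocysteine, had the higher mean on the high-fat diet (20.2 ± 1.78 and 24.3 ± 3.13 CPM), and Secisbp2l the lower one (106 ± 10.6 and 91.4 ± 5.83 CPM).

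Among 38 other tested iron and heme genes, 21 were positive and 17 negative, and the 6 with an unadjusted p under 0.05 (15.8%, beside 12.1% of all genes) were all negative. They included Alas1, the first enzyme of heme synthesis (38.3 ± 2.00 and 32.3 ± 3.16 CPM, SD, n = 5 each), Cpox, a late enzyme of the same path (72.9 ± 12.7 and 56.5 ± 6.81 CPM), the metalloreductase Steap2 (166 ± 24.4 and 132 ± 13.5 CPM) and the zinc and iron importer Slc39a8 (1.69 ± 0.32 and 0.934 ± 0.527 CPM). Alas1 and Cpox thus had lower high-fat means, as did the heme-degrading Hmox1. Of 24 lipid peroxidation and ferroptosis genes, 16 were negative, 5 with an unadjusted p under 0.05, and 2 were positive with such a p, Acsl3 (log2 difference 0.33) and Lpcat3 (0.26), acyl-chain enzymes named after their values were seen. Together these were 29.2%, beside 12.1% of all genes. Ptgs2, a cyclooxygenase used as a ferroptosis marker, was 230 ± 40.2 and 162 ± 25.4 CPM, Cyb5r1, a reductase that can feed lipid peroxidation, 206 ± 75.4 and 126 ± 13.98 CPM, and Mboat2, a phospholipid-remodelling enzyme, 16.8 ± 1.497 and 14.1 ± 1.21 CPM.

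Of 17 tested sources of superoxide and hydrogen peroxide, 10 were negative, 5 with an unadjusted p under 0.05 (29.4%, beside 12.1% of all genes). Ero1l, the oxidase that makes disulfide bonds in the endoplasmic reticulum and releases hydrogen peroxide, was 498, 457, 320, 317 and 515 CPM in control mice 1 to 5. In high-fat mice 1 to 5 it was 261, 189, 172, 252 and 268 CPM. The groups did not overlap (log2 difference -0.88, SE 0.17, unadjusted p = 0.000261, adjusted p = 0.108), and Ero1l and Gpx8, which act in the same compartment, differed in opposite directions.

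The phagocyte oxidase genes Cybb, Ncf1 and Ncf4 were among the others, and control mice 3 and 4 were highest for each of them. Cybb was 7.12, 2.17, 19.0, 25.7 and 2.68 CPM in control mice 1 to 5 and 0.417, 3.11, 1.83, 2.66 and 2.86 CPM in high-fat mice 1 to 5. Apart from control mice 1, 3 and 4, the diets lay in the same range. With the macrophage level as a covariate the log2 difference of Cybb turned from -2.38 to 0.39. Those of Hmox1 (-1.25), Gclm (-0.60) and Slc7a11 (-1.41) became larger in size, and those of Nfe2l2 (-0.08) and Mgst1 (-1.11) smaller. The covariate comes from these same counts, and its testable markers all had lower high-fat means. Such a fit cannot show which cells the transcripts came from, which was not tested.

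**Figure D4:**
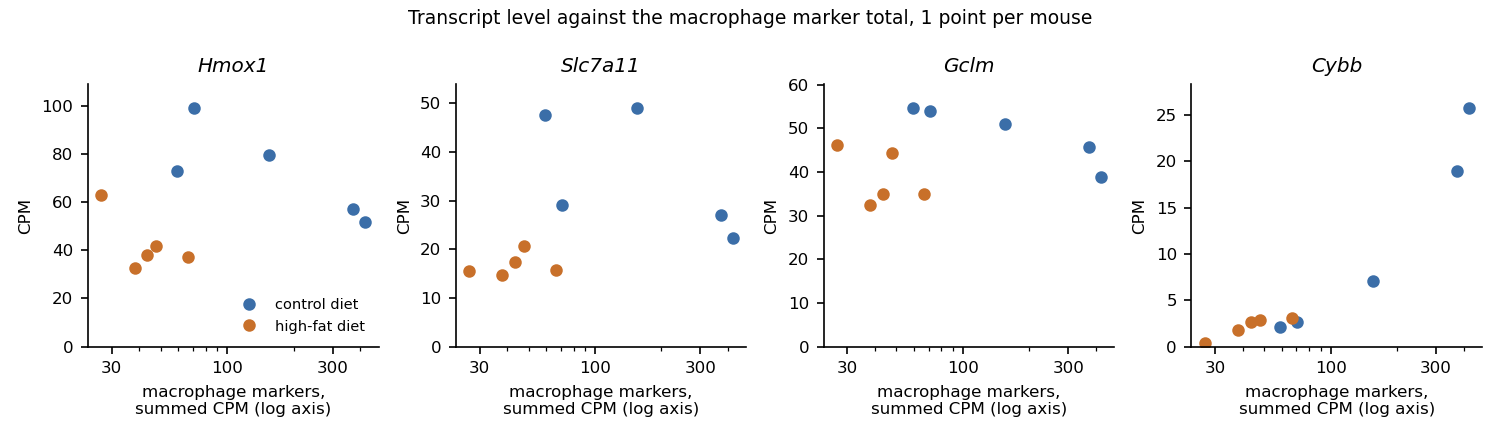
CPM of 4 genes (y axes, from 0) against the summed CPM of 12 macrophage markers (x axes, log scale), 1 point per mouse, by diet. Cybb is highest in the 2 control mice with totals of 372 and 422 CPM, whereas Hmox1 and Gclm are the lowest of the controls in those mice.

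Several members have processed copies elsewhere in the genome that share stretches of 50 or more bases, and the copies held many counts. Gpx4-ps2, a copy of Gpx4, had 16202 counts beside 5769 for Gpx4 itself, 73.7% of the pair. The share of counts on copies was 45.9% for Gstp1, 34.7% for Prdx1, 34.1% for Sod1, 26.4% for Txn1, 16.5% for Gstm1, 14.8% for Prdx2 and 7.33% for Fth1. Absolute levels of these genes are therefore uncertain, and the place of Gpx4 and Gstp1 in the order of levels most of all. The diet differences moved little when each gene was summed with its copies: -0.05 for Gpx4, -0.04 for Gstp1 and -0.22 for Fth1 on the log2 scale. Gm6977, the copy of Fth1, had a log2 difference of -0.22 by itself (unadjusted p = 0.0348), the same as Fth1.

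**Figure D5:**
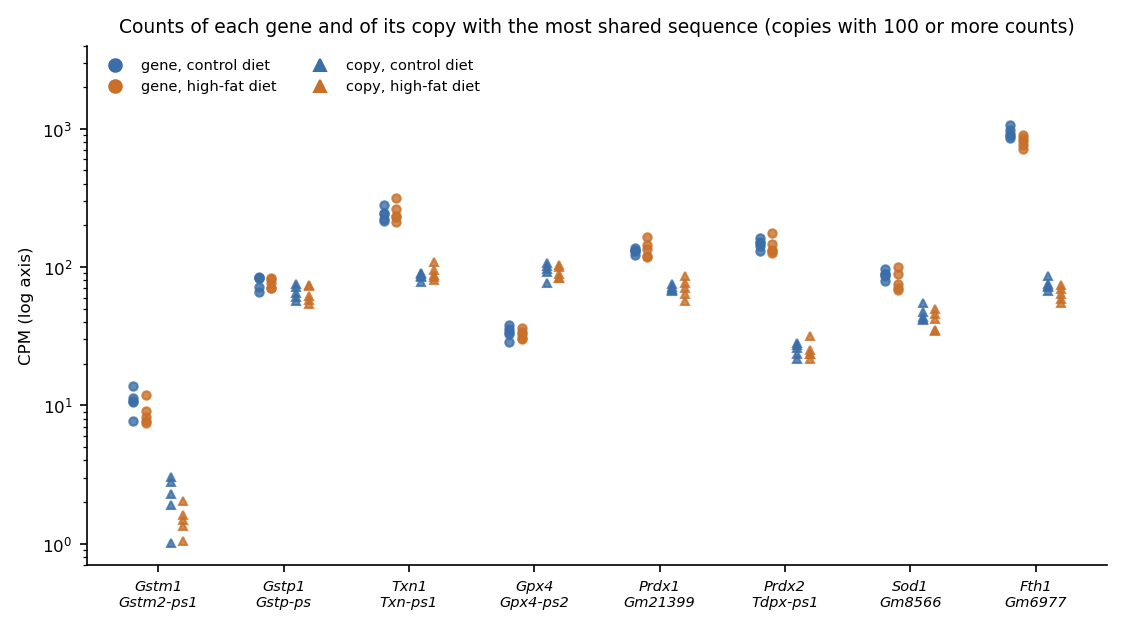
CPM (y axis, log scale) in each of 10 libraries of 8 genes (circles) and of a copy with shared sequence (triangles), control and high-fat diet side by side. Only for Gpx4 do the triangles lie above the circles, at 16202 against 5769 counts.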

How the data were processed

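The authors deposited unnormalized whole-number counts, with a row per gene and 1 column per mouse. The libraries were NEBNext Ultra RNA libraries of polyadenylated RNA, per the labels' protocols. Per the submitters' processing notes the tools were BWA 0.7.12, cutadapt 1.15, DESeq2 1.24.0 and FastQC 0.11.5, and the builds mm10 and GRCm38, without their roles. Which program counted reads, with which annotation and strand setting, is not given in the sources used here. Without strand, reads of Gss and Acss2, Prdx2 and Junb or Rnaseh2a, Prdx5 and Trmt112, Keap1 and Gm16754, Aifm2 and H2afy2, or Ftl1 and Gm10252 cannot be told apart where their exons overlap.

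Of 53379 gene identifiers, 53274 matched GENCODE M21 (GRCm38) without version, which gave symbols, coordinates and exon lengths. The test, high-fat minus control and two-sided, was the robust quasi-likelihood test of edgeR 4.0.16 under R 4.3.3, with TMM, filterByExpr and diet as its only term. P-values were adjusted by Benjamini-Hochberg over 14337 genes, threshold 0.05. The script was tested on simulated data. CPM are TMM-scaled. Alternatives were DESeq2 1.42.0, limma 3.58.1 (voom), other scalings and filters, a replicate block, covariates, left-out mice and summed copies, the last chosen after seeing the data. No label sets control mice 3 and 4 apart. Their macrophage totals, and the macrophage covariate, come from these same counts. Full values are given for members with an unadjusted p under 0.05, members whose groups do not overlap, and the highest member per length of each role. Up to 4 genes per wider list were named, by smallest unadjusted p under 0.05 with at least 1 CPM. The members and lists were chosen with earlier results of these data known.

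The replicate numbers name different mice in each diet. Same-numbered mice did not deviate together, with correlations from -0.36 to 0.33.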

Additional observations from a re-analysis of the deposited data

Results flagged for a closer look

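The level of Prdx3 in high-fat mouse 5 was 141 CPM, while the other high-fat mice lay between 95.0 and 101 CPM. Its gap to the nearest of them took 0.86 of the whole range of the group, above Dixon's critical value of 0.71 for 5 samples. Among 72 groups checked (36 genes in each diet) this was the only one, and chance marks about 1 group in 20. Without that mouse the log2 difference of Prdx3 was -0.0047.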

How the results depend on the processing

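The number of genes past the threshold was 9. It was 326 with DESeq2, 5 with limma-voom and 53 with no low-count filter. It was 0 with library size as a covariate (5.70% of genes with an unadjusted p under 0.05) and 298 with the macrophage level as one. Without control mice 3 and 4 it was 276, and it was 1 to 27 when 1 mouse was left out. Members past the threshold numbered 0, but 2 with DESeq2 (Hmox1 and Gclc), 2 with the macrophage covariate (Hmox1 and Gclm) and 1 without control mice 3 and 4 (Hmox1), and 0 in each run without 1 mouse. With the replicate block 16 genes, no member, and 10 members at an unadjusted p under 0.05 (beside 11.5% of all genes) were counted, and Ero1l passed (adjusted p = 0.031); only pair 1 correlated best with its own number. The members with an unadjusted p under 0.05 numbered 6 to 10 when 1 mouse was left out, beside 8.46% to 14.9% of all genes.

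Some differences changed sign, most of them small; those of Ncf1, Cybb and Ncf4 were large (-2.10, -2.38 and -1.15). Sod2 was 0.0014 with DESeq2, 0.0029 with DESeq2 size factors, 0.011 with upper-quartile scaling, 0.0019 without a filter and 0.00073 at 1 CPM in 5 libraries. Upper-quartile scaling also turned Srxn1 (0.0029) and Cat (0.0061). Library size as a covariate turned Nqo1 (-0.081), Tfrc (0.24) and Aifm2 (-1.4e-05). The macrophage covariate turned Gss (-0.0084), Txn1 (-0.13), Txnrd2 (-0.0093), Srxn1 (0.090), Prdx1 (-0.013), Tfrc (0.47), Ncf1 (0.38), Cybb (0.39) and Ncf4 (0.019). Leaving out control mice 3 and 4 turned Txn1 (-0.032), Srxn1 (0.035) and Tfrc (0.20). Without 1 mouse, the log2 difference ran from -0.11 to 0.21 for Nqo1, -0.0015 to 0.084 for Gss, -0.077 to 0.013 for Gstp1, -0.035 to 0.12 for Txn1, -0.065 to 0.040 for Srxn1, -0.015 to 0.11 for Prdx1, -0.12 to 8.3e-05 for Prdx2, -0.0047 to 0.15 for Prdx3, -0.050 to 0.048 for Sod2, -0.035 to 0.041 for Cat, -0.039 to 0.43 for Ftl1 and -0.16 to 0.16 for Tfrc. The cause was not tested. Depth limits Mgst1, Gsta4, Gpx3, Gpx7 and Slc40a1 most.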
